A study of Mus musculus with 9 samples.

Results

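Transcripts of 32 genes that mark astrocytes were followed in cultures of primary mouse microglia. The genes were chosen as a list of names, with earlier results of these data known. They were matched by symbol to the 24411 gene rows of each library, and 32 of 32 were found. RNA was sequenced from 9 libraries in 3 groups of 3, all from cells of 3-day-old ICR mouse pups. Cells were given 1 µM R848 together with 100 U/ml IFN-α (the combined group), R848 alone at 1 µM, or IFN-α alone at 100 U/ml, each for 4 h. R848, also called resiquimod, activates the RNA sensor TLR7 in the endosomes of mouse cells, and IFN-α belongs to the type I interferons. Per the labels' protocols, whole neonatal brains were dissociated, mixed glia were grown in flasks, the loosely attached cells were shaken off, and these were plated for 24 h before treatment. No sort or selection by a surface marker is described, so glia other than microglia could be carried over. Whether the replicates came from separate cultures is not stated, and the p-values then cover only how far these libraries lie apart, which can be technical. Untreated cells are not analysed here, and every comparison below is between 2 treated groups.

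Astrocytes are the glia that clear glutamate from synapses, buffer potassium and water at the processes that wrap blood vessels, and couple to each other through gap junctions. Glutamate enters through the transporters Slc1a2 and Slc1a3 and is turned into glutamine by Glul. The water channel Aqp4 and the membrane protein Mlc1 sit at the vascular endfeet, Gja1 forms the main astrocytic gap junction, and Gfap and Vim build the intermediate filaments that astrocytes increase when they become reactive. Several of the genes are not specific to astrocytes. Vim, Glul and Clu are also made by macrophages, fibroblasts or other cells, and Gfap, Sox9 and Fabp7 are shared with neural progenitors. In RNA from a whole culture, a lower share of a cell type and less RNA per cell of that type cannot be told apart.

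Promoter sequences were taken from RefSeq (GRCm38.p6, 250 bases before to 50 bases after the gene start, gene strand) for 26 of the 32 genes. Windows are shown for 4 genes that followed different patterns across the groups: Slc1a3 and Gfap, which were higher in the combined group than in both others, Glul, which was higher in both groups that received R848, and Gja1, which was lower in the R848 group than in both others. Capitals mark matches to any of 4 motifs searched on both strands. These were the GAS element bound by STAT dimers (TTCNNNGAA), a core of the interferon-stimulated response element or ISRE (GAAANNGAAA), a kappaB site (GGGNNTTTCC) and a TATA box (TATAAA). The windows lie at chr15:8710758-8711057 (minus strand) for Slc1a3, chr11:102897151-102897450 (minus strand) for Gfap, chr1:153899679-153899978 (plus strand) for Glul and chr10:56377050-56377349 (plus strand) for Gja1.
Slc1a3: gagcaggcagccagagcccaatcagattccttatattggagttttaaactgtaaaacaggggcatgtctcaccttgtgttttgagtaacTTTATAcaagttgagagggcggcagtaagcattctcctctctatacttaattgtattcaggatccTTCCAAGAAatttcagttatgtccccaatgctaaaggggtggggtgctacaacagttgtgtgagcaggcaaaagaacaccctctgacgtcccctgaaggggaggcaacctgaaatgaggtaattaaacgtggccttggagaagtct
Gfap: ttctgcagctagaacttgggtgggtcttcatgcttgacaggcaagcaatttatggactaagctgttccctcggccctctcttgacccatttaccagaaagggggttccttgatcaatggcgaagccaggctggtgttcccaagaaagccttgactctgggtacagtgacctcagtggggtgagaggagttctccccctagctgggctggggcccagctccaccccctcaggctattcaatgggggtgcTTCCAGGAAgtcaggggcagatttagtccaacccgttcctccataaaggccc
Glul: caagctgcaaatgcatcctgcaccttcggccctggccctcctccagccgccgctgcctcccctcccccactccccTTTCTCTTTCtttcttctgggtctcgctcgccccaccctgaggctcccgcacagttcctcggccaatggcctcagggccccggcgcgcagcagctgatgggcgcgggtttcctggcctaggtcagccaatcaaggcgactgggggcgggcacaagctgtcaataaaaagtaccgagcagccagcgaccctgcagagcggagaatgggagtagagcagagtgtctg
Gja1: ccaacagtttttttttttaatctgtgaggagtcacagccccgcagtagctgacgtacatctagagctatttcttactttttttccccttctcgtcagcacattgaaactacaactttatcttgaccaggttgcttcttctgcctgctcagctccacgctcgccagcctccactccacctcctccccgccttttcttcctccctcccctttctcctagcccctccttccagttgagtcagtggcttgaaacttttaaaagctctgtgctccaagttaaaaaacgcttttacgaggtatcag
The GAS letters were found in the windows of Aldoc, Gfap, Ntsr2 and Slc1a3, 4 of the 26, and in 8.30% of all 32851 promoter windows of the same length. The ISRE core was found in Glul, on the strand opposite to the gene, and in Ttyh1, and in 3.44% of all windows. The kappaB letters were found in Vim and in 1.63% of windows, and the TATA box letters were found in Dio2, Ndrg2, Slc1a3 and Vim and in 13.6% of windows. In Slc1a3 the TATA box letters lay on the strand opposite to the gene. The Gja1 window held none of the 4. A match is a description of the letters in the window and says nothing of whether a factor was bound there.

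The libraries held between 2505941 and 6005578 counts in genes, with combined replicate 3 the deepest. The ribosomal RNA precursor gene Rn45s held 13.3% to 26.1% of these counts, and every share of gene counts given below includes it. Levels are given as CPM, counts scaled to a common library size, after correction of the library totals with TMM factors, which equalize the bulk of genes between libraries. The factors ran from 0.831 to 0.892 in the combined group, from 1.05 to 1.17 in the R848 group and from 0.954 to 1.11 in the IFN-α group. The choice of scale therefore bears on every comparison with the combined group: with library totals alone, the median log2 change of all 11002 genes tested moved by -0.39 against R848 and by -0.31 against IFN-α. Changes below are on the TMM scale unless another is named.

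Astrocyte transcripts were present in every library. The 32 genes summed to between 6742 and 7965 CPM in the combined libraries, between 4621 and 4714 CPM in the R848 libraries and between 3606 and 4159 CPM in the IFN-α libraries, so the groups did not overlap. The order was the same in the share of gene counts before any scaling, at 0.558% to 0.660% in the combined libraries, 0.484% to 0.543% in the R848 libraries and 0.395% to 0.453% in the IFN-α libraries. Vim held a large part of these sums, and without it the other 31 genes summed to between 3799 and 5179 CPM, between 2599 and 2926 CPM and between 2057 and 2526 CPM in the combined, R848 and IFN-α libraries. A list of 16 core markers leaves out Vim, Glul and Clu but still holds Gfap and Sox9, which neural progenitors share. Of these 16, 14 had enough counts to be tested. Of the other two, the gap junction gene Gjb6 was near 0, with 4, 6 and 4 counts summed over the combined, R848 and IFN-α libraries, and the neurotensin receptor gene Ntsr2 had 25, 11 and 15. The GABA transporter gene Slc6a11 was the third member under the filter, with 4, 5 and 1 counts. All 3 are genes of mature astrocytes, and no fold change is given for them.

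Per kilobase of exon sequence, the levels of the members covered a wide range. Averaged over the 9 libraries, Vim stood at 458 CPM per kb, Gfap at 242, Aqp4 at 97.4, Glul at 65.8, Clu at 55.0 and Sparcl1 at 54.9, while the median of the 32 genes was 5.37 CPM per kb. Markers that cover most astrocytes in adult brain were far lower, with Slc1a2 at 5.64 CPM per kb, Slc1a3 at 4.15 CPM per kb and Aldh1l1 at 1.96 CPM per kb. For comparison, 16 markers of microglia and macrophages ran from 6.81 CPM per kb for Aif1 to 1428 CPM per kb for the lysosomal protease gene Ctss, with a median of 93.9 CPM per kb. In these averages over the 9 libraries, Gfap and Aqp4 were thus at or above the median level of the microglial markers per kilobase, and most other astrocyte genes were well below it. For Aqp4 this average hides a wide range between groups, at 168 CPM per kb in the combined group, 79.2 under R848 and 44.9 under IFN-α.

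**Figure D1:**
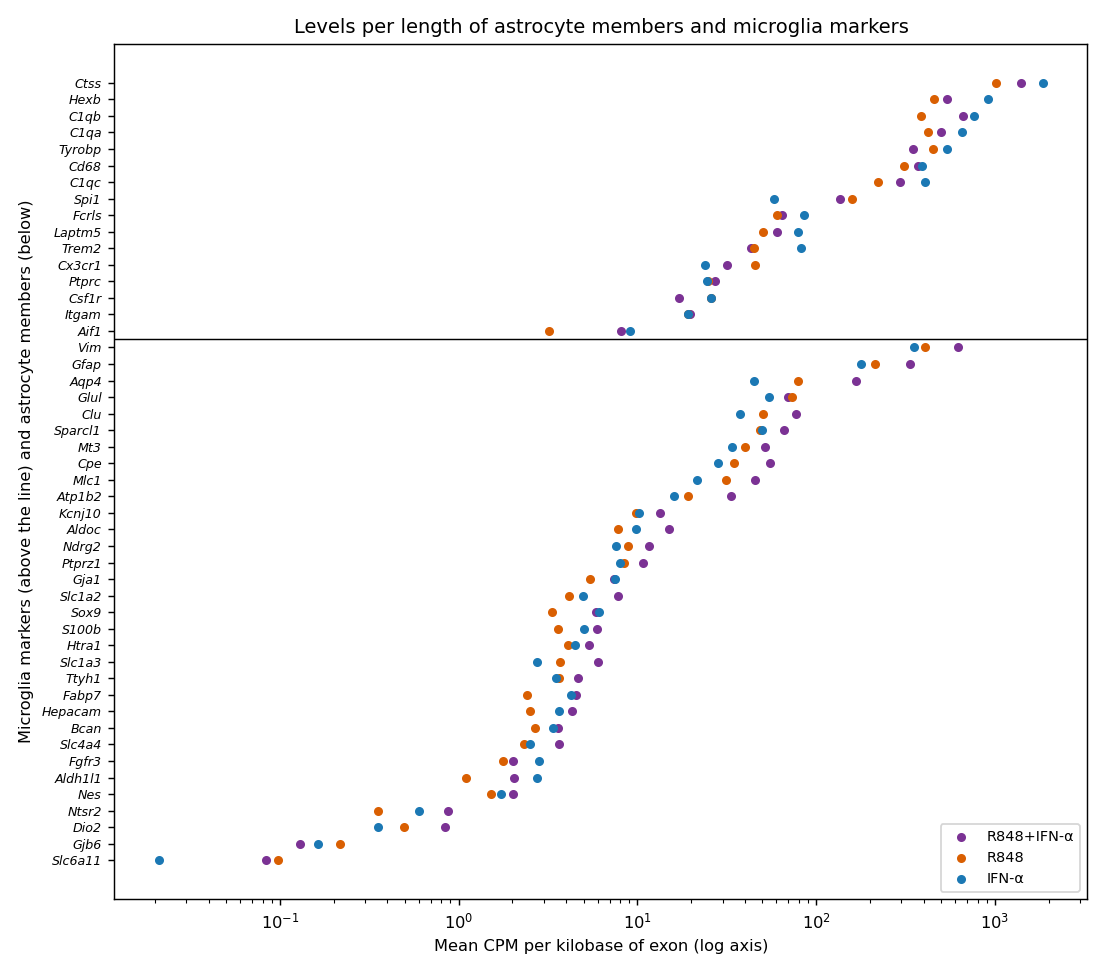
Mean level of each gene in each group of 3 libraries (points coloured by group), in CPM per kilobase of exon on a log axis, for the 16 microglial markers above the line and the 32 astrocyte genes below it, each sorted by level. Over all 9 libraries Vim (458 CPM per kb) and Gfap (242 CPM per kb) lead the astrocyte genes, Aqp4 follows at 97.4, and Gjb6 (0.170) and Slc6a11 (0.0676) are at the bottom.

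Of the 32 genes, 29 passed the filter on low counts, and 23 of these differed among the 3 groups (edgeR quasi-likelihood test, Benjamini-Hochberg adjusted p under 0.05), against 50.3% of all genes tested. The mean was highest in the combined group for 24 of the 29, in the IFN-α group for 4 and in the R848 group for 1, which was Glul. It was lowest in the R848 group for 15 and in the IFN-α group for 14. In the combined group against the R848 group, 19 members were higher and 0 were lower, where 19.2% of all genes tested were higher and 16.7% were lower. The median log2 fold change of the 29 was 0.62, beside -0.03 for all genes tested. In the combined group against the IFN-α group, 18 were higher and 0 were lower, where 18.5% of all genes were higher and 14.7% lower, and the medians were 0.41 for the members and -0.01 for all genes. In the R848 group against the IFN-α group, 6 were higher and 4 were lower, where 18.4% of all genes were higher and 19% lower, and the medians were -0.04 and 0.02. The libraries of both groups did not overlap, with the combined group higher, for 23 members against R848 (22.6% of all genes) and for 17 against IFN-α (24%), and with the combined group lower for 0 (22.4%) and 1 (22.3%), which was Fgfr3. Between R848 and IFN-α this was so for 7 that were higher (23%) and 6 that were lower (23.4%). These 3 comparisons share libraries with each other, so they are not independent. The members' share of higher calls stood above the background in both comparisons with the combined group, and between the single agents neither direction did so by much. The list was chosen with earlier results of these data known, so this is a description and no support from an independent list. Some lists of other brain cells also had a positive median change in the combined group, as given further below.

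**Figure D2:**
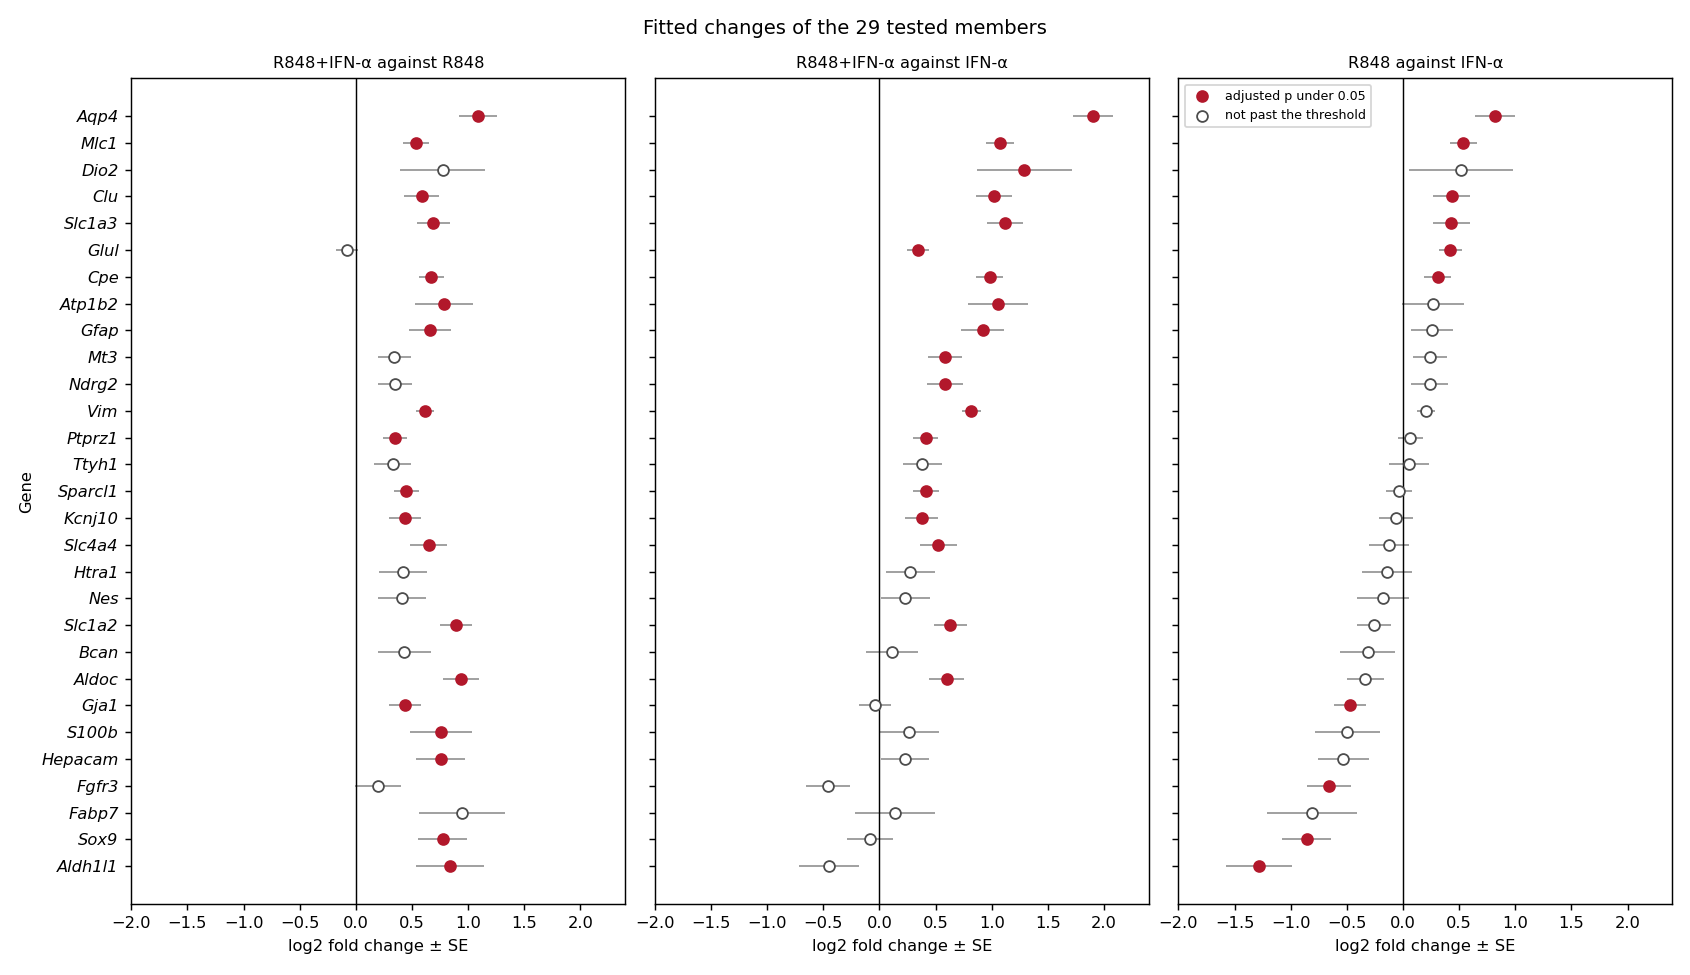
Log2 fold changes with SE of the 29 astrocyte genes tested, for the combined group against R848, the combined group against IFN-α, and R848 against IFN-α, on the TMM scale. Filled points passed the test, and genes are sorted by the third comparison. The fold changes are positive for 28 of 29 genes in the first comparison and for 25 of 29 in the second, while in the third 14 are positive and 15 negative.

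Among the intermediate filament genes, Gfap and Vim rose in the combined group against both single agents. Gfap, the defining filament protein of astrocytes, stood at 1213, 1838 and 1204 CPM in the combined libraries, at 924, 848.2 and 918 CPM in the R848 libraries and at 922, 675 and 652 CPM in the IFN-α libraries. All 3 combined libraries lay above the 6 others, replicate 2 by the widest margin, and the R848 and IFN-α libraries overlapped. The log2 fold change was 0.66 ± 0.19 (SE; adjusted p = 0.0228) against R848 and 0.92 ± 0.19 (adjusted p = 0.00476) against IFN-α. The Gfap call against R848 was lost with upper-quartile scaling, with library totals alone, with the replicate number in the fit and without each of the R848 libraries in turn, with adjusted p up to 0.107 over 19 alternatives. The call against IFN-α was lost when only those 2 groups were fitted (adjusted p = 0.0539). Vim, a filament protein of many cell types, stood at 3090, 2786 and 2943 CPM in the combined libraries, 2022, 1976 and 1754 CPM in the R848 libraries and 1633, 1816 and 1549.7 CPM in the IFN-α libraries. Its spread was small, and its log2 fold changes were 0.62 ± 0.08 (adjusted p = 3.6e-07) against R848 and 0.82 ± 0.08 (adjusted p = 1.9e-09) against IFN-α. Nes, the filament gene of neural progenitors, averaged 12.9 ± 0.48 CPM in the combined group, 9.70 ± 0.77 CPM in the R848 group and 11.0 ± 2.25 CPM in the IFN-α group (SD, n = 3 each), and it did not pass the test in any comparison.

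Of 7 genes of the astrocyte endfoot and its ion balance, Aqp4, Mlc1, Hepacam, Kcnj10, Atp1b2 and Slc4a4 were higher in the combined group than under R848, and all of these but Hepacam were higher than under IFN-α. Ttyh1 passed no test, and Aqp4 and Mlc1 also differed between the single agents. Aqp4 stood at 1049, 1205 and 891 CPM in the combined libraries, 353, 547 and 581 CPM in the R848 libraries and 265, 297 and 278 CPM in the IFN-α libraries. The 3 groups did not overlap, and R848 replicate 1 was the lowest of its group. Aqp4 was higher by 1.09 ± 0.17 (log2, SE; adjusted p = 0.000452) in the combined group than in the R848 group, by 1.90 ± 0.18 (adjusted p = 6.5e-06) than in the IFN-α group, and by 0.82 ± 0.17 (adjusted p = 0.00314) in the R848 group than in the IFN-α group. These calls held in all 19 alternatives tried. Mlc1, a membrane protein needed for cell volume control at the endfoot, stood at 118, 145 and 121 CPM in the combined libraries, 75.2, 87.3 and 101 CPM in the R848 libraries and 68.1, 54.7 and 58.8 CPM in the IFN-α libraries. The 3 groups of Mlc1 did not overlap either, and its log2 fold changes were 0.54 ± 0.12 (adjusted p = 0.000466), 1.07 ± 0.12 (adjusted p = 2.2e-08) and 0.54 ± 0.12 (adjusted p = 0.000771) in the same order of comparisons. The first of these was lost with library totals alone (adjusted p = 0.405).

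Hepacam, the adhesion protein that binds Mlc1, followed another order. Hepacam stood at 12.0, 17.3 and 13.9 CPM in the combined libraries, 9.26, 8.23 and 7.70 CPM in the R848 libraries and 12.8, 12.7 and 11.1 CPM in the IFN-α libraries. It was higher in the combined group than in the R848 group (log2 0.76 ± 0.22, adjusted p = 0.00705), and the combined and IFN-α libraries overlapped (0.23 ± 0.21, adjusted p = 0.448). The potassium channel gene Kcnj10 stood at 78.1, 74.7 and 63.5 CPM in the combined libraries, 55.6, 53.2 and 49.8 CPM in the R848 libraries and 67.8, 59.8 and 39.1 CPM in the IFN-α libraries. Its changes of 0.44 ± 0.15 (adjusted p = 0.0188) against R848 and 0.37 ± 0.15 (adjusted p = 0.0497) against IFN-α were small, and they were lost under 5 and 12 of the 19 alternatives. The sodium pump subunit gene Atp1b2 stood at 146, 147 and 118 CPM in the combined libraries, 113, 64.9 and 58.3 CPM in the R848 libraries and 65.4, 80.0 and 51.8 CPM in the IFN-α libraries. R848 replicate 1 was nearly as high as the lowest combined library, and the call against R848 (0.79 ± 0.26, adjusted p = 0.0471) was lost under 8 alternatives, while that against IFN-α was 1.05 ± 0.27 (adjusted p = 0.0173) and was lost without IFN-α replicate 1 (adjusted p = 0.0616). The bicarbonate transporter gene Slc4a4 stood at 41.1, 38.9 and 37.8 CPM in the combined libraries, 18.2, 27.8 and 29.0 CPM in the R848 libraries and 26.3, 32.6 and 22.9 CPM in the IFN-α libraries. All 3 combined libraries of Slc4a4 were above the rest, at log2 changes of 0.65 ± 0.17 (adjusted p = 0.00262) against R848 and 0.53 ± 0.17 (adjusted p = 0.0159) against IFN-α. The first call was lost with library totals alone (adjusted p = 0.244). The second was lost under 4 alternatives, which were library totals alone and leaving out IFN-α replicate 1, IFN-α replicate 3 or combined replicate 1 (adjusted p up to 0.361). Ttyh1, a chloride channel family member, averaged 29.8 ± 6.09 CPM in the combined group, 23.2 ± 0.358 CPM in the R848 group and 22.5 ± 3.64 CPM in the IFN-α group and passed no test.

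**Figure D3:**
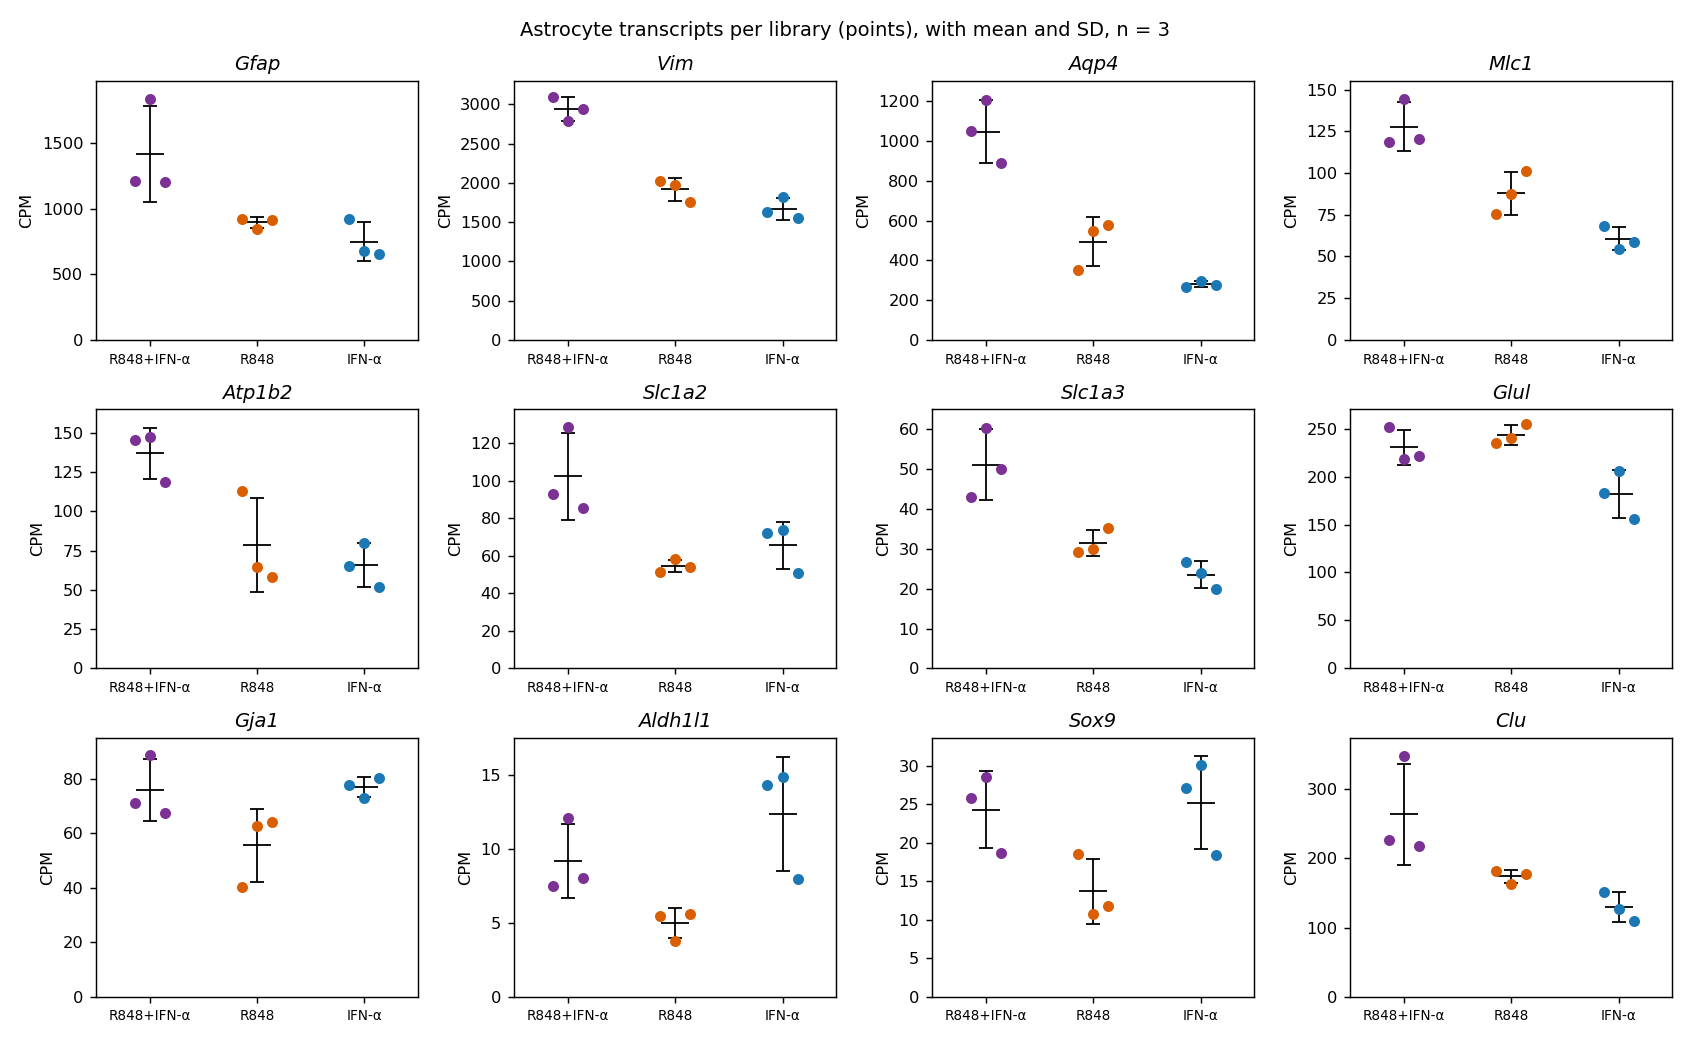
CPM of selected astrocyte genes in each of the 9 libraries (points), with the mean and SD of each group of 3. The 3 groups do not overlap for Aqp4, with 891 to 1205 CPM in the combined libraries, 353 to 581 CPM in the R848 libraries and 265 to 297 CPM in the IFN-α libraries.

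The glutamate genes did not move as a unit. Slc1a2 (GLT-1), the main glutamate transporter of the adult forebrain, stood at 92.6, 129 and 85.7 CPM in the combined libraries, 51.5, 58.2 and 53.9 CPM in the R848 libraries and 72.0, 73.5 and 50.9 CPM in the IFN-α libraries. It was higher in the combined group than under R848 (0.89 ± 0.14, adjusted p = 1.3e-05) and IFN-α (0.63 ± 0.14, adjusted p = 0.000948), and the R848 and IFN-α libraries overlapped. Slc1a3 (GLAST), the transporter that immature astrocytes and radial glia also carry, stood at 43.0, 60.5 and 50.1 CPM in the combined libraries, 29.2, 30.1 and 35.2 CPM in the R848 libraries and 26.7, 23.9 and 20.0 CPM in the IFN-α libraries. The 3 groups of Slc1a3 did not overlap, with changes of 0.69 ± 0.15 (adjusted p = 0.000415) against R848 and 1.12 ± 0.16 (adjusted p = 1.2e-06) against IFN-α. Between R848 and IFN-α the change was 0.43 ± 0.17 (adjusted p = 0.0416), a call lost under 8 alternatives. Glul, which encodes glutamine synthetase, stood at 251, 219 and 222 CPM in the combined libraries, 235, 240.1 and 255 CPM in the R848 libraries and 183, 206 and 156 CPM in the IFN-α libraries. The combined and R848 libraries overlapped (-0.08 ± 0.10, adjusted p = 0.571), and both lay above the IFN-α libraries, by 0.34 ± 0.10 (adjusted p = 0.00806) and 0.42 ± 0.10 (adjusted p = 0.00094). The call of Glul in the combined group against IFN-α was lost with library totals alone, without IFN-α replicate 3 and without combined replicate 1.

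The gap junction gene Gja1 (connexin 43) was lowest under R848. It stood at 71.3, 89.0 and 67.6 CPM in the combined libraries, 40.2, 62.6 and 64.3 CPM in the R848 libraries and 77.8, 73.2 and 80.5 CPM in the IFN-α libraries. The combined libraries lay above the R848 libraries (0.43 ± 0.14, adjusted p = 0.0168) and overlapped the IFN-α libraries (-0.04 ± 0.14, adjusted p = 0.868), and R848 was lower than IFN-α by a log2 change of -0.47 ± 0.14 (adjusted p = 0.00867). The first call was lost under 4 alternatives, among them the one without R848 replicate 1, and the last with library totals alone (adjusted p = 0.0585).

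Sox9, Aldh1l1 and Fgfr3 were also lower in the R848 group than in the IFN-α group. Sox9, a transcription factor of astrocytes and their progenitors, stood at 25.8, 28.5 and 18.7 CPM in the combined libraries, 18.5, 10.8 and 11.8 CPM in the R848 libraries and 27.1, 30.1 and 18.4 CPM in the IFN-α libraries. Its log2 changes were 0.77 ± 0.22 (adjusted p = 0.00636) for the combined group against R848, -0.09 ± 0.21 (adjusted p = 0.795) for the combined group against IFN-α and -0.86 ± 0.22 (adjusted p = 0.00231) for R848 against IFN-α. Aldh1l1, a folate enzyme used as a general astrocyte marker, stood at 7.47, 12.1 and 8.04 CPM in the combined libraries, 5.50, 3.80 and 5.63 CPM in the R848 libraries and 14.3, 14.8 and 7.95 CPM in the IFN-α libraries. The change of Aldh1l1 between R848 and IFN-α was -1.28 ± 0.29 (adjusted p = 0.000679), the largest in size among the 29 members in that comparison. The combined group was higher than R848 by 0.84 ± 0.30 (adjusted p = 0.0313), a call lost under 5 alternatives. Fgfr3, a growth factor receptor, stood at 14.9, 13.4 and 14.9 CPM in the combined libraries, 11.0, 16.1 and 11.0 CPM in the R848 libraries and 20.9, 21.7 and 17.5 CPM in the IFN-α libraries. All 3 IFN-α libraries lay above the 6 others. The change was -0.66 ± 0.20 (adjusted p = 0.00864) for R848 against IFN-α, while the change of -0.46 ± 0.20 for the combined group against IFN-α missed the threshold (adjusted p = 0.0709) and passed it under 5 alternatives.

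Of the other metabolic genes and regulators, Aldoc and S100b were higher in the combined group than under R848, Aldoc, Mt3, Ndrg2 and Dio2 were higher than under IFN-α, and Fabp7 passed no test. Aldoc, the brain form of a glycolytic aldolase, stood at 44.4, 58.3 and 45.0 CPM in the combined libraries, 20.3, 27.2 and 29.0 CPM in the R848 libraries and 36.8, 30.1 and 29.9 CPM in the IFN-α libraries. Its calls were 0.94 ± 0.16 (adjusted p = 1.6e-05) against R848, which held in all 19 alternatives, and 0.60 ± 0.16 (adjusted p = 0.00306) against IFN-α. The metallothionein gene Mt3 stood at 55.7, 67.8 and 42.6 CPM in the combined libraries, 43.4, 42.1 and 42.6 CPM in the R848 libraries and 36.4, 40.6 and 31.8 CPM in the IFN-α libraries. Only its difference between the combined and IFN-α groups passed the test (0.58 ± 0.15, adjusted p = 0.00361). The same held for Ndrg2, a regulator of cell growth, at 38.5, 47.9 and 31.6 CPM in the combined libraries, 31.8, 29.1 and 29.6 CPM in the R848 libraries and 27.5, 25.0 and 24.5 CPM in the IFN-α libraries (0.58 ± 0.16, adjusted p = 0.00504, lost with library totals alone and without combined replicate 2). It also held for Dio2, the deiodinase that activates thyroid hormone, at 4.11, 5.18 and 5.43 CPM in the combined libraries, 3.47, 2.21 and 2.96 CPM in the R848 libraries and 2.71, 2.53 and 0.954 CPM in the IFN-α libraries (1.29 ± 0.42, adjusted p = 0.0184, lost under 4 alternatives). The calcium-binding protein gene S100b stood at 7.10, 9.07 and 10.3 CPM in the combined libraries, 4.63, 5.69 and 5.63 CPM in the R848 libraries and 6.58, 6.52 and 9.22 CPM in the IFN-α libraries. It was higher in the combined group than under R848 (0.76 ± 0.28, adjusted p = 0.0314), and this call was lost under 9 alternatives. The fatty acid carrier gene Fabp7 averaged 5.68 ± 1.70 CPM in the combined group, 3.00 ± 1.56 CPM in the R848 group and 5.31 ± 1.52 CPM in the IFN-α group and passed no test, with the combined group against R848 nearest to it (0.95 ± 0.38, adjusted p = 0.0533).

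Of the 6 secreted and matrix genes, Clu, Cpe, Sparcl1 and Ptprz1 were higher in the combined group than in both others, and Bcan and Htra1 passed no test. Clu, the secreted chaperone clusterin, stood at 226, 348 and 218 CPM in the combined libraries, 182, 164 and 177 CPM in the R848 libraries and 152, 127 and 109 CPM in the IFN-α libraries. The 3 groups of Clu did not overlap, with changes of 0.59 ± 0.16 (adjusted p = 0.00768) against R848 and 1.02 ± 0.16 (adjusted p = 0.00011) against IFN-α. The Clu call against R848 was lost when R848 replicate 1 was left out and with library totals alone (adjusted p up to 0.235). Cpe, a peptide-processing enzyme, stood at 131, 161 and 143 CPM in the combined libraries, 90.3, 87.0 and 94.8 CPM in the R848 libraries and 87.9, 72.1 and 60.7 CPM in the IFN-α libraries. It changed by 0.67 ± 0.11 (adjusted p = 1.8e-05) against R848 and by 0.98 ± 0.12 (adjusted p = 6e-08) against IFN-α. Clu (0.43 ± 0.16, adjusted p = 0.0475) and Cpe (0.31 ± 0.12, adjusted p = 0.0432) were also called between R848 and IFN-α, calls lost under 9 and 10 alternatives. The synapse-promoting matrix protein gene Sparcl1 stood at 204, 213 and 169 CPM in the combined libraries, 115, 145 and 167 CPM in the R848 libraries and 147, 149.6 and 141 CPM in the IFN-α libraries. Ptprz1, a receptor phosphatase, stood at 162, 162 and 136 CPM in the combined libraries, 101, 122 and 136 CPM in the R848 libraries and 105, 119.9 and 119 CPM in the IFN-α libraries. The changes of both were small, at 0.45 ± 0.11 (adjusted p = 0.00228) and 0.35 ± 0.11 (adjusted p = 0.013) against R848 for Sparcl1 and Ptprz1, and 0.41 ± 0.11 for each against IFN-α (adjusted p = 0.00559 and 0.00415). With library totals alone, neither gene passed the test in either comparison, and the log2 change of Ptprz1 against R848 was -0.044. The Ptprz1 call against R848 was also lost with upper-quartile factors, without combined replicate 1 and without combined replicate 2. The matrix proteoglycan gene Bcan averaged 14.6 ± 2.32 CPM in the combined group, 10.9 ± 4.33 CPM in the R848 group and 13.7 ± 2.34 CPM in the IFN-α group, and the protease gene Htra1 averaged 15.4 ± 2.37, 11.8 ± 1.96 and 12.9 ± 3.21 CPM in those groups.

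**Figure D4:**
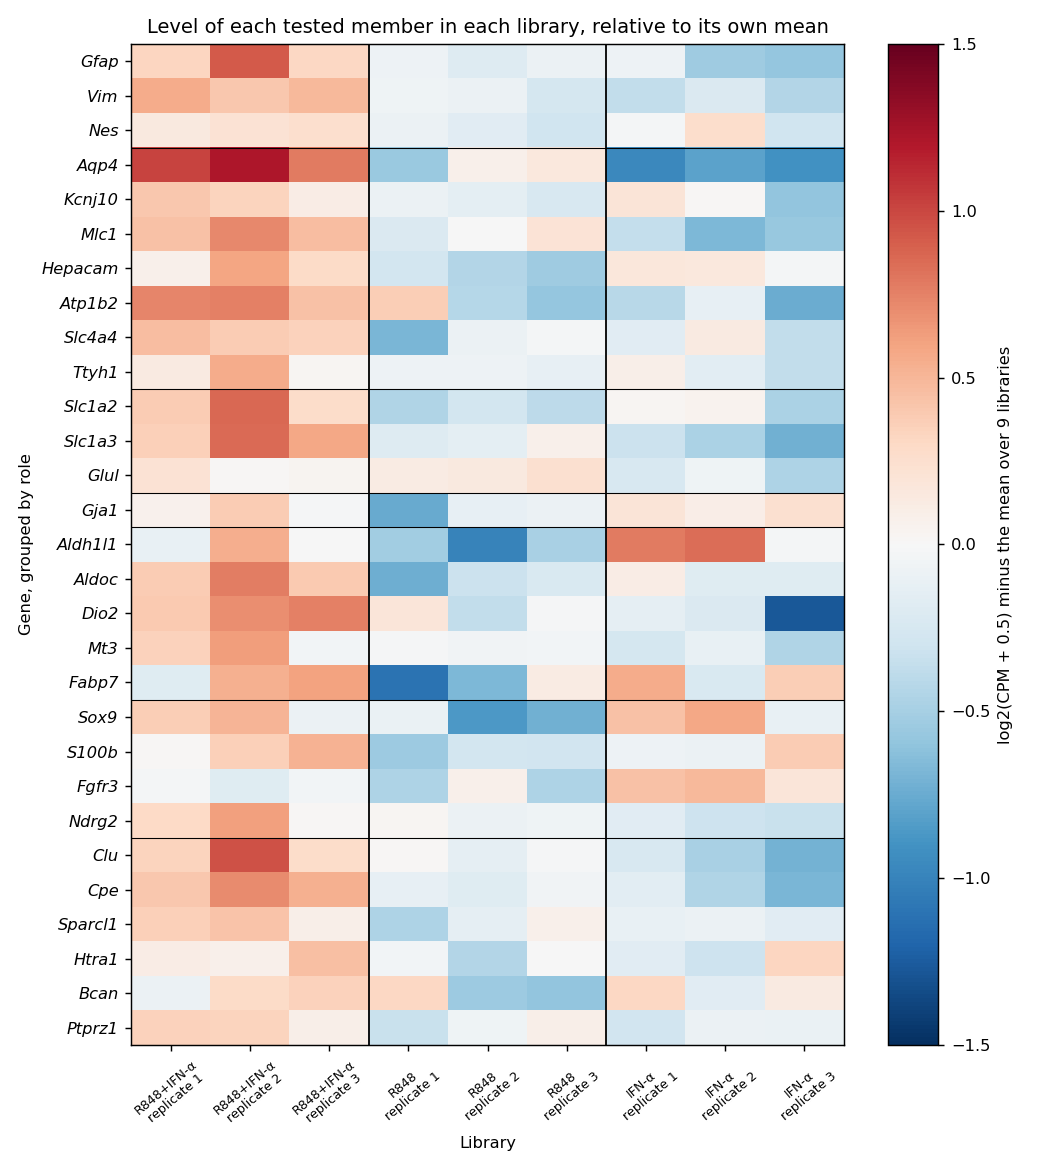
Level of each astrocyte gene tested in the 9 libraries, as log2(CPM + 0.5) minus the gene's mean over the 9, ordered by role, with the combined libraries on the left, then R848, then IFN-α. Combined replicate 2 is the highest of its group for 17 of 29 genes and IFN-α replicate 3 the lowest of its group for 21 of 29.

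Single libraries stood apart within their groups for many members at once. Combined replicate 2 was the highest of its group for 17 of the 29 genes, and IFN-α replicate 3 was the lowest of its group for 21. R848 replicate 1 was the highest of its group for 13 genes and the lowest for 12, with Atp1b2 high and Aqp4 low in it. Without combined replicate 2, 13 members in place of 19 were higher in the combined group than under R848. Without IFN-α replicate 3, 14 members in place of 18 were higher in the combined group than under IFN-α. Between R848 and IFN-α, 3 members in place of 6 were higher without R848 replicate 2 or without IFN-α replicate 3. No share of all genes is given for the fits without a library, so these counts have no background to be read against.

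The number of members called against R848 depended on the scale, since a scaling moves all genes by nearly the same amount. Under TMM, upper-quartile factors and library totals alike, the members' median stood 0.65 above that of all genes against R848. Against IFN-α it stood 0.42, 0.42 and 0.43 above it. Of the 29 members, 28 and 25 lay above the median of all genes in these comparisons each time. No share of all genes is given beside the counts of calls that follow. With upper-quartile factors 12 members were higher in the combined group than under R848, and with library totals alone there were 4 (Aqp4, Slc1a2, Aldoc and Atp1b2), while 1, Glul, was lower. Against IFN-α, library totals alone left 8 higher and 2 lower (Aldh1l1 and Fgfr3). Only Aqp4, Slc1a2 and Aldoc kept their call against R848 under all 19 alternatives. Against IFN-α, Vim, Aqp4, Mlc1, Slc1a3, Clu and Cpe did so, and between R848 and IFN-α these were Aqp4, Mlc1 and Glul, which were higher, and Aldh1l1, Sox9 and Fgfr3, which were lower. Aldh1l1 was tested under 18 of them, since the stricter filter on low counts leaves it out.

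The members were then compared on a second scale, in which the library totals were replaced by the geometric mean of the 14 core astrocyte markers that passed the filter. This scale asks whether a gene changed relative to the common level of those markers. Of the 29 members tested, 14 set the scale themselves and centre near 0 on it by construction. The share of all genes called on this scale is therefore no fair background for the members. In the combined group against R848, Aqp4 was higher (0.39 ± 0.17, adjusted p = 0.0277), Glul was lower (-0.76 ± 0.17, adjusted p = 2.3e-05) and the other 27 passed no test, where 71% of all genes tested were called (7.27% higher and 63.7% lower). The median of all genes on this scale was -0.71 and that of the members was -0.06. Gfap, Vim, Slc1a2 and Slc1a3 stood at -0.05 ± 0.17, -0.06 ± 0.17, 0.20 ± 0.18 and 0.01 ± 0.19 on it. Scaled instead by the summed counts of the core markers, the Aqp4 change of 0.32 no longer passed the test (adjusted p = 0.139), and Glul remained lower (-0.83 ± 0.20, adjusted p = 0.000109). The counts were 4 members called without R848 replicate 1 and 1 without combined replicate 1, in place of 2, with no share of all genes given for these fits.

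In the combined group against IFN-α, 11 members were called on the scale of the core markers, where 55% of all genes were called (6.77% higher and 48.2% lower). Aqp4 (1.38 ± 0.17, adjusted p = 1.9e-14), Slc1a3 (0.61 ± 0.20), Mlc1 (0.56 ± 0.17), Atp1b2 (0.56 ± 0.17), Clu (0.50 ± 0.17), Cpe (0.48 ± 0.17) and Gfap (0.39 ± 0.17, adjusted p = 0.0379) were higher. Fgfr3 (-0.95 ± 0.23, adjusted p = 0.000226), Aldh1l1 (-0.93 ± 0.28, adjusted p = 0.00309), Sox9 (-0.57 ± 0.22, adjusted p = 0.0174) and Gja1 (-0.55 ± 0.18, adjusted p = 0.00467) were lower. In R848 against IFN-α, Aqp4 (0.99 ± 0.17, adjusted p = 6.2e-08), Mlc1 (0.71 ± 0.18), Clu (0.62 ± 0.17), Glul (0.61 ± 0.17), Slc1a3 (0.61 ± 0.21), Cpe (0.49 ± 0.17), Atp1b2 (0.46 ± 0.18) and Gfap (0.45 ± 0.17) were higher and Aldh1l1 (-1.10 ± 0.31, adjusted p = 0.00174) and Sox9 (-0.67 ± 0.23, adjusted p = 0.0115) were lower, where 36.1% of all genes were called (22.8% higher and 13.3% lower). Which members were called depended on the core markers used. With summed counts, of which Gfap and Aqp4 hold most, 21 members were called in the combined group against IFN-α, of which 1, Aqp4, was higher (0.81 ± 0.20) and 20 were lower, in place of 7 higher and 4 lower. The higher calls of Gfap, Mlc1, Slc1a3, Atp1b2, Clu and Cpe were lost on it. In R848 against IFN-α the summed counts gave 1 higher and 8 lower members, in place of 8 higher and 2 lower. The share of all genes called on the summed scale is not given, so these numbers have no background to be read against. Without Gfap, Aqp4 and S100b in the scale, Sox9 (adjusted p = 0.113) and Gja1 (adjusted p = 0.0615) were lost from the lower calls in the combined group. Higher Aqp4 and lower Fgfr3 and Aldh1l1 in the combined group than under IFN-α, and higher Aqp4 and lower Aldh1l1 and Sox9 under R848 than under IFN-α, were called on each of these 3 scales.

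Ratios of counts within a library need no scaling. The pairs were chosen after the values were seen, so they are given as a description with no test. The ratio of Gja1 to Aqp4 was 0.0680, 0.0738 and 0.0759 in the combined libraries, 0.114, 0.114 and 0.111 in the R848 libraries and 0.294, 0.247 and 0.290 in the IFN-α libraries. The groups did not overlap, and the spread within each was small. The ratio of Aqp4 to Gfap was 0.865, 0.656 and 0.740 in the combined libraries, 0.382, 0.645 and 0.632 in the R848 libraries and 0.287, 0.440 and 0.426 in the IFN-α libraries, where R848 replicate 1 and IFN-α replicate 1 were low in their groups. The ratio of Slc1a2 to Slc1a3 was 2.16, 2.13 and 1.71 in the combined libraries, 1.76, 1.94 and 1.53 in the R848 libraries and 2.70, 3.08 and 2.54 in the IFN-α libraries, so that the IFN-α libraries were the highest and the other groups overlapped. Not every pair differed between groups. The ratio of Vim to Gfap averaged 2.17 ± 0.57, 2.14 ± 0.21 and 2.28 ± 0.47 in the combined, R848 and IFN-α groups (SD), and all groups overlapped. Other pairs were computed and are not shown.

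**Figure D5:**
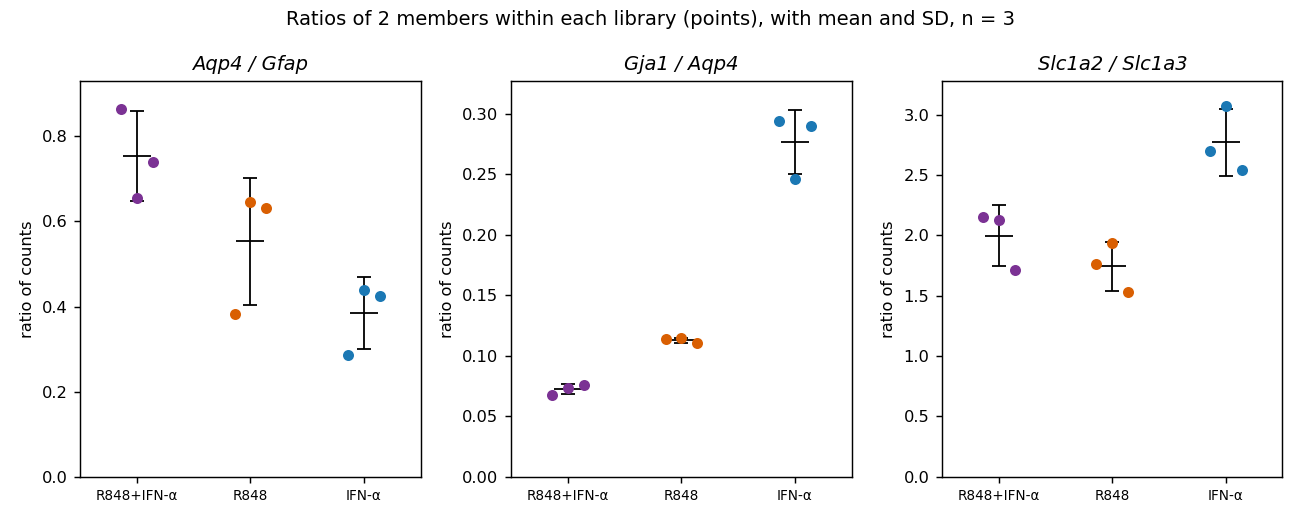
Ratios of the counts of paired astrocyte genes within each library (points), with the mean and SD of each group of 3. Gja1 over Aqp4 is 0.0680 to 0.0759 in the combined libraries, 0.111 to 0.114 in the R848 libraries and 0.247 to 0.294 in the IFN-α libraries.

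Of 40 other astrocyte-enriched genes, 26 were tested. In the combined group 9 were higher and 2 lower than under R848, where 19.2% of all genes tested were higher and 16.7% lower, and 14 were higher and 2 lower than under IFN-α, where 18.5% of all genes were higher and 14.7% lower. Under R848, 5 were higher and 4 lower than under IFN-α, where 18.4% of all genes were higher and 19% lower. The mitochondrial glutamate carrier gene Slc25a18 averaged 93.2 ± 8.22 CPM in the combined group, 52.1 ± 2.00 CPM in the R848 group and 21.2 ± 2.62 CPM in the IFN-α group (SD, n = 3 each), the order of Aqp4. Its changes were 0.83 ± 0.12 (adjusted p = 1.4e-06) against R848, 2.13 ± 0.14 (adjusted p = 9.5e-14) against IFN-α and 1.30 ± 0.14 (adjusted p = 6.4e-09) between R848 and IFN-α. Id4, an inhibitor of differentiation factors, averaged 21.6 ± 5.64 CPM in the combined group, 12.5 ± 2.58 CPM in the R848 group and 55.4 ± 9.98 CPM in the IFN-α group, with R848 lower than IFN-α as for Aldh1l1 and Sox9 (-2.15 ± 0.19, adjusted p = 7.4e-11). Unlike them, Id4 was also lower in the combined group than under IFN-α (-1.40 ± 0.18, adjusted p = 1.9e-07). Axl, a receptor kinase that macrophages also express, averaged 605 ± 43.1 CPM in the combined group, 161 ± 8.80 CPM in the R848 group and 488 ± 16.7 CPM in the IFN-α group.

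Of 35 genes described in reactive astrocytes, 31 were tested, and 24 were higher and 1 (Cd14) lower in the combined group than under R848, 26 higher and 0 lower than under IFN-α, and 16 higher and 7 lower under R848 than under IFN-α. The shares of all genes tested were 19.2% higher and 16.7% lower, 18.5% higher and 14.7% lower, and 18.4% higher and 19% lower in the same comparisons. Many of these, among them Iigp1, Gbp2, Cxcl10, Cd14 and Ptgs2, are also induced in macrophages by interferon or by Toll-like receptor agonists, so the list does not belong to astrocytes alone. Lcn2, a secreted iron-carrier protein, averaged 162 ± 27.2 CPM in the combined group, 147 ± 9.62 CPM in the R848 group and 6.50 ± 2.31 CPM in the IFN-α group. Its change between R848 and IFN-α was 4.50 ± 0.18 (adjusted p = 3.8e-19), and the combined group against R848 did not pass it (0.12 ± 0.12, adjusted p = 0.448). Serpina3n, a protease inhibitor, averaged 145 ± 12.1 CPM in the combined group, 103 ± 8.16 CPM in the R848 group and 88.4 ± 10.0 CPM in the IFN-α group, the same order as the sum of the members.

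The 16 microglial markers summed to between 6778 and 7674 CPM in the combined libraries, between 5938 and 6446 CPM in the R848 libraries and between 9049 and 9543 CPM in the IFN-α libraries. These groups did not overlap, and the combined libraries lay above the R848 libraries and below the IFN-α libraries. Before any scaling, the markers held 0.561% to 0.681% of gene counts in the combined libraries, 0.675% to 0.689% in the R848 libraries and 0.859% to 1.05% in the IFN-α libraries, where the combined and R848 libraries overlapped. These totals include Rn45s. The combined libraries held 20546, 15695 and 36222 marker counts, out of 2612997, 2208091 and 4815286 gene counts without Rn45s. The R848 libraries held 22276, 19035 and 20047, out of 2572794, 2340804 and 2477441. As a share of these totals, all combined libraries lay below all R848 libraries, the reverse of their order in CPM. The order of these 2 groups thus depends on the scale. In the combined group, 6 of the 16 were higher and 3 lower than under R848, where 19.2% of all genes tested were higher and 16.7% lower. Against IFN-α, 2 were higher and 9 lower in the combined group (18.5% and 14.7% of all genes), and 2 were higher and 9 lower under R848 (18.4% and 19%). Itgam (CD11b) averaged 99.0 ± 2.00 CPM in the combined group, 96.2 ± 10.1 CPM in the R848 group and 96.8 ± 7.26 CPM in the IFN-α group. Csf1r, the receptor for the survival factor CSF1, averaged 98.2 ± 3.24 CPM in the combined group, 148 ± 42.5 CPM in the R848 group and 149.9 ± 22.1 CPM in the IFN-α group, and the combined group was below both single agents (-0.59 ± 0.16, adjusted p = 0.00592, and -0.60 ± 0.16, adjusted p = 0.00609). Single microglial markers thus differed between the agents in opposite directions, and their sum gives no count of microglia. The part that the share of astrocytes in each culture had in the members' values was not tested.

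Markers of other brain cells were detected as well. The 14 oligodendrocyte lineage genes summed to between 607 and 654 CPM in the combined libraries, between 535 and 568 CPM in the R848 libraries and between 681 and 810 CPM in the IFN-α libraries. Of these genes, Cnp averaged 149.7 ± 13.7, 57.4 ± 2.56 and 203 ± 8.37 CPM in the same groups (SD, n = 3 each). The differences between the sums thus rest in large part on this 1 gene. The 12 fibroblast and pericyte genes summed to between 346 and 517 CPM, between 320 and 458 CPM and between 277 and 302 CPM in the combined, R848 and IFN-α libraries, with Rgs5 at 0 in the IFN-α group. Of the 10 tested, 2 were higher and 0 lower in the combined group than under R848 (19.2% and 16.7% of all genes). Against IFN-α, 3 were higher and 0 lower (18.5% and 14.7% of all genes). Before any scaling the 12 genes held 0.0307% to 0.0428%, 0.0360% to 0.0479% and 0.0285% to 0.0333% of gene counts in the combined, R848 and IFN-α libraries. The 7 ependymal genes summed to between 115 and 129.6 CPM, between 93.0 and 104 CPM and between 76.0 and 96.7 CPM in the same groups. Of the 5 tested, 0 were higher and 0 lower in the combined group than under R848 (19.2% and 16.7% of all genes). Against IFN-α, 3 were higher and 0 lower (18.5% and 14.7% of all genes). The 7 ependymal genes held 0.00952% to 0.0107%, 0.0104% to 0.0120% and 0.00739% to 0.0107% of gene counts before scaling in the combined, R848 and IFN-α libraries. Averaged over all libraries, the median level of the ependymal genes was 7.62 CPM per kb, beside 5.37 CPM per kb for the 32 astrocyte genes. The 12 neuronal genes summed to between 180 and 196 CPM, between 146 and 168 CPM and between 153 and 185 CPM, with Slc17a6 and Slc17a7 at 0 in all 9 libraries. The 11 endothelial genes summed to between 43.6 and 57.9 CPM, between 17.4 and 23.2 CPM and between 51.8 and 67.4 CPM, with Emcn at 0 throughout. The 12 proliferation genes summed to between 161 and 167 CPM, between 172 and 186 CPM and between 169.97 and 214 CPM. The median log2 change of the combined group against R848 and IFN-α was 0.38 and 0.50 for the 10 fibroblast and pericyte genes tested. It was 0.28 and 0.58 for 5 ependymal genes and 0.32 and 0.24 for 6 neuronal genes. For 12 oligodendrocyte lineage genes it was 0.10 and -0.14, and for 3 endothelial genes 2.44 and -0.34. The 9 proliferation genes tested had -0.72 and -0.29. A positive median was thus not particular to the astrocyte genes. The part of these cells in the members' values was not tested.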

How the data were processed

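The authors deposited whole-number read counts per gene for each library, unnormalized, with unstranded, forward-strand and reverse-strand columns. The submitters' processing notes name CASAVA 1.8.2, Trimmomatic 0.33, STAR 2.5.1, DESeq2 and the mouse build mm10. No source used here names the gene annotation used for counting. The reverse-strand counts were used, since forward-strand counts made up at most 1.50% of both. Read pairs in no gene on that strand (39.3% to 44.4%) stayed out of totals and tests. STAR leaves out multi-mapping reads in its gene counts, which can lower genes that have close copies. Aldh1l1 and Glul overlap Gm45901 and Mir8114 on the same strand in GENCODE M21.

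Genes were filtered with filterByExpr (minimum count 10, minimum total 15, by group), which left 11002. Group means were fitted to all 9 libraries with TMM factors and edgeR 4.0.16 (limma 3.58.1, R 4.3.3, robust quasi-likelihood F test), and p-values were Benjamini-Hochberg adjusted over all 11002 genes with a threshold of 0.05. The biological coefficient of variation was 0.0955. The SE of a log2 fold change is its size divided by the square root of F. The script was tested on simulated data. In the second scale, the geometric mean of count plus 0.5 over the core markers replaced the totals. Levels per kilobase use exon lengths from GENCODE M21. Replicate pairs differed beyond sampling noise (chi-square per degree of freedom 1.92 to 6.27, without Rn45s).

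The members and all gene lists were chosen with earlier results of these data known. Values in every library are given for members called in at least 1 comparison. From other lists at most 4 called genes with the largest change and a mean of at least 5 CPM could be named, plus a few well-known markers. Alternatives covered the scaling, filter, strand column, test, replicate block, leaving out Rn45s, leaving out each library and fitting only the groups compared.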

Additional observations from a re-analysis of the deposited data

How the results depend on the processing

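The share of all genes called is given only for the main settings, so the counts of members in this section have no background to be read against. Among the counts of members, requiring at least a 2-fold change left 1 member higher in the combined group than under R848, 6 higher than under IFN-α, and 0 higher and 1 lower under R848 than under IFN-α. Relative to the core markers it left 0, 1 and 1 members called in the same comparisons. Upper-quartile factors gave 12 higher against R848, 1 lower against IFN-α and a median of 0.013 for R848 against IFN-α. Library totals alone gave 4 higher, 1 lower and a median of 0.23 against R848, 8 higher, 2 lower and a median of 0.11 against IFN-α, a median of 0.0503 between the single agents and 14 members differing among the 3 groups. The medians of all genes tested on that scale were -0.42, -0.32 and 0.10 in the same order of comparisons. Under library totals alone Ptprz1 stood at -0.044 in the combined group against R848 (edgeR adjusted p = 0.816). DESeq2's test gave 3 higher under R848 than under IFN-α. With Rn45s left out, the combined group lost the calls of Atp1b2 against R848 and of Kcnj10 against IFN-α. The calls of Clu and Cpe between R848 and IFN-α were lost as well. Without the low-count filter the median for R848 against IFN-α was 0.0055. A stricter filter (minimum count 50) gave 1 lower and a median of 0.55 for the combined group against IFN-α, and 3 higher and a median of 0.17 for R848 against IFN-α. Unstranded counts gave a median of -0.061 for R848 against IFN-α. The summed core markers gave 1 called member against R848 and 21 against IFN-α, with no share of all genes to set beside them. Fitting only the groups compared gave 1 lower against IFN-α and a median of -0.073 for R848 against IFN-α.

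Leaving out each library in turn gave 13 to 20 higher members and medians of 0.48 to 0.65 for the combined group against R848, and 14 to 18 higher, 0 to 1 lower and medians of 0.38 to 0.52 against IFN-α. For R848 against IFN-α it gave 3 to 7 higher, 4 to 5 lower and medians of -0.059 to 0.034. Relative to the core markers, 1 to 4, 6 to 11 and 6 to 11 members were called in the 3 comparisons, and 17 to 23 members differed among the 3 groups. Same-numbered libraries did not deviate together: over 9 pairs the correlation of their deviations ran from -0.16 to 0.097, so the numbers were not taken to pair the samples. With the replicate block, 19 members were higher against R848 (median 0.62), with Gfap lost and Mt3 gained, and 18 against IFN-α. The cause of these shifts was not tested, beyond the move of the median of all genes that each scaling makes. Low counts limit Aldh1l1, S100b, Dio2 and Fabp7, and untreated cells, cell counts and protein are not analysed here.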
